A study of Rattus norvegicus with 16 samples.

Results

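The genes described here encode enzymes that make and use glutathione, remove peroxides, or oxidise and reduce aldehydes, ketones and quinones. They were chosen by name, as the genes whose symbol belongs to the glutathione transferase (Gsta, Gstk, Gstm, Gsto, Gstp, Gstt and Mgst), glutathione peroxidase (Gpx), peroxiredoxin (Prdx), thioredoxin reductase (Txnrd), aldo-keto reductase (Akr) and aldehyde dehydrogenase (Aldh) families, with Gclc, Gclm, Gss, Gsr, Nqo1, Nqo2, Hagh and Haghl. This rule found 77 of the 14217 genes with a single symbol on the array, through 89 probe sets, and a gene with several was represented by the probe set with the highest mean signal. RNA came from the proximal femur, the hip end of the thigh bone, of 4-week-old rats of 4 inbred strains with 4 arrays each. The strains were Fischer 344, written F344, and Lewis, written LEW, with Copenhagen 2331 (COP) and Dark Agouti (DA). The study compared these strains because a skeletal locus on chromosome 4 had been mapped in a cross of F344 and LEW. The labels name no treatment and give neither a sex nor any further genotype. The labels number the arrays of a strain as replicates without saying that they came from separate animals, so p-values reflect the spread between these arrays, which may be technical. The RNA is that of a whole piece of bone, in which genes of blood and fat cells were measured beside those of bone, so fewer cells of a type and less RNA per cell cannot be told apart.

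Glutathione is a tripeptide of glutamate, cysteine and glycine that cells hold as their main soluble thiol. Glutamate-cysteine ligase (Gclc, the catalytic subunit, and Gclm, the modifier subunit) makes its first bond and Gss adds glycine, and glutathione reductase (Gsr) returns the oxidised form with NADPH. Glutathione peroxidases and peroxiredoxins use glutathione or thioredoxin to reduce peroxides, transferases join glutathione to electrophiles, and quinone, aldo-keto and aldehyde enzymes act on reactive carbonyls and quinones. Many of these genes share a promoter sequence, the antioxidant response element, which the transcription factor Nrf2 (Nfe2l2) binds when its inhibitor Keap1 releases it. In bone, oxidants take part in osteoclast formation, and retinaldehyde dehydrogenases of the Aldh1a family make retinoic acid, a regulator of skeletal growth.

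Each array held signals for 31099 probe sets, with array medians from 302.8 to 324.6. Every array correlated best with an array of its own strain (16 of 16; r across probe sets from 0.977 to 0.989 within strains and from 0.962 to 0.973 between them). The bone labels were met by strain means of 51487, 54999, 54446 and 55945 for osteocalcin (Bglap) and of 31373, 28987, 31898 and 26599.8 for the osteoclast phosphatase Acp5, in F344, LEW, COP and DA. Signals of different probe sets depend on their probes, so levels are compared between strains and never between genes. A sequence difference between strains under a probe could also change its signal, which was not tested. Of the 77 genes, 67 had only 1 probe set.

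Of the 77 genes, 61 had a mean signal above the filter of 173.5, the 40th percentile over probe sets, and were tested, and 16 did not. The F-test over the 4 strains called 36 of the 61 at a limma adjusted p under 0.05, which is 59.0% against 32.9% of all 10548 genes tested. The gap between the highest and the lowest strain mean had a median of 0.34 (log2) in the 61 genes and 0.27 in all genes. Most differences were small: among the 36 called genes the gap ran from 0.23 to 2.22, it was 1 or more in 7 of them and under 0.5 in 21. The 36 and the 7 include Haghl, whose COP mean of 84.6 lay under the filter level and which passed through the other strains. Haghl is also counted as called in each pair with COP below. With 1 array left out at a time, 23 of the 36 kept their call each time.

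Differences between strain pairs are given as log2 differences, with a positive value where the first strain is higher, and pairs that share a strain share its arrays. In F344 minus LEW, 14 of the 61 were called (23.0%, background 14.5%), 9 higher in F344 (background 6.96%) and 5 lower (background 7.54%). For COP minus DA, 20 of the 61 were called (32.8%, background 12.2%), 9 higher in COP (background 5.74%) and 11 lower (background 6.42%). F344 and COP differed in the largest number of these genes, where 28 of the 61 were called (45.9%, background 21.0%), 16 higher in F344 (background 10.4%) and 12 lower (background 10.6%). For F344 minus DA, 17 of the 61 were called (27.9%, background 17.3%), 13 higher in F344 (background 8.11%) and 4 lower (background 9.20%). In LEW minus COP, 18 of the 61 were called (29.5%, background 14.1%), 10 higher in LEW (background 6.41%) and 8 lower (background 7.72%). The smallest share was that of LEW minus DA, where 7 of the 61 were called (11.5%, background 10.4%), 4 higher in LEW (background 4.65%) and 3 lower (background 5.77%). The median difference of the 61 genes ran from -0.042 in COP minus DA to 0.10 in F344 minus COP, while that of all genes ran from -0.015 to 0.012 over the 6 pairs. The group therefore did not move one way as a whole, and the called genes were a mix of rises and falls in each pair. Leaving out F344 replicate 1, F344 replicate 2, DA replicate 2 or DA replicate 3 brought the count for F344 minus DA to 11, and leaving out COP replicate 1 brought that for COP minus DA to 13. The split by direction moved with single arrays too. Without F344 replicate 1 it was 10 higher and 9 lower and without COP replicate 2 it was 10 higher and 11 lower in F344 minus COP. Without LEW replicate 1 it was 5 higher and 8 lower, as it was without LEW replicate 3, and without COP replicate 1 it was 6 higher and 8 lower in LEW minus COP, so the balance in that pair turned. Without DA replicate 1 it was 10 higher and 8 lower in F344 minus DA, with 7 higher and 4 lower without F344 replicate 1 or 2 or DA replicate 2 or 3. Without COP replicate 1 it was 6 higher and 7 lower and without COP replicate 2 it was 10 higher and 9 lower in COP minus DA. For single genes, a call is said to be lost where the limma adjusted p was 0.05 or more with the named array left out, and the highest p over all single arrays left out is given beside it.

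**Figure D1:**
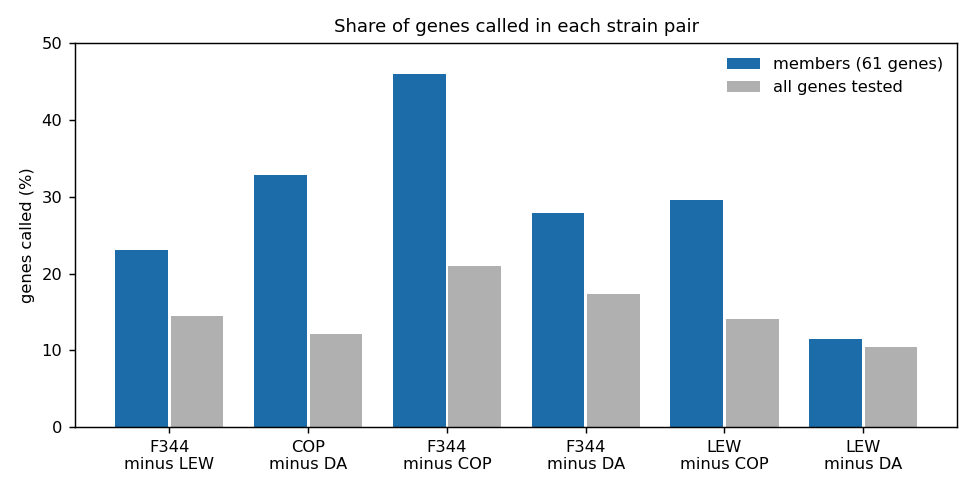
Bars give the percentage of genes called at a limma adjusted p under 0.05 in each strain pair, for the 61 enzyme genes tested (blue) and all 10548 genes tested (grey). The blue bar is highest for F344 minus COP, at 45.9% against 21.0%, and the pair LEW minus DA has nearly equal bars, at 11.5% and 10.4%.

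A strain was taken to stand apart for a gene where its 3 differences from the other strains were all called in the same direction. This held for 15 of the 61 genes, against 10.6% of all genes tested. F344 was higher than every other strain for Nqo2, Akr1b8, Akr1c14, Akr1c15 and Akr1e2, which are all reductases of quinones or carbonyls. COP was higher for the aldehyde dehydrogenases Aldh1a1, Aldh1a3 and Aldh3a2, the microsomal transferase Mgst2 and the peroxiredoxin Prdx5, and lower for Gclm, Gpx4 and Haghl, the last of which passed the filter only through the strains where it was higher. DA was higher for Gclc and lower for Akr1b8, and Gstt3 was lowest in F344 and highest in LEW. For Akr1c14, Akr1e2, Aldh1a1, Aldh3a2, Mgst2, Gclm and Gpx4, at least 1 of these calls was lost with a single array left out. The same held for Akr1b8 lower in DA and Gstt3 lowest in F344, and Akr1c14 was called on 1 of 3 probe sets. Over the 36 genes called by the F-test, the highest strain mean lay in F344 for 13, COP for 11, DA for 8 and LEW for 4, and the lowest lay in COP for 15, DA for 9, F344 for 7 and LEW for 5. Haghl is counted among the 13 highest in F344 and the 15 lowest in COP.

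**Figure D2:**
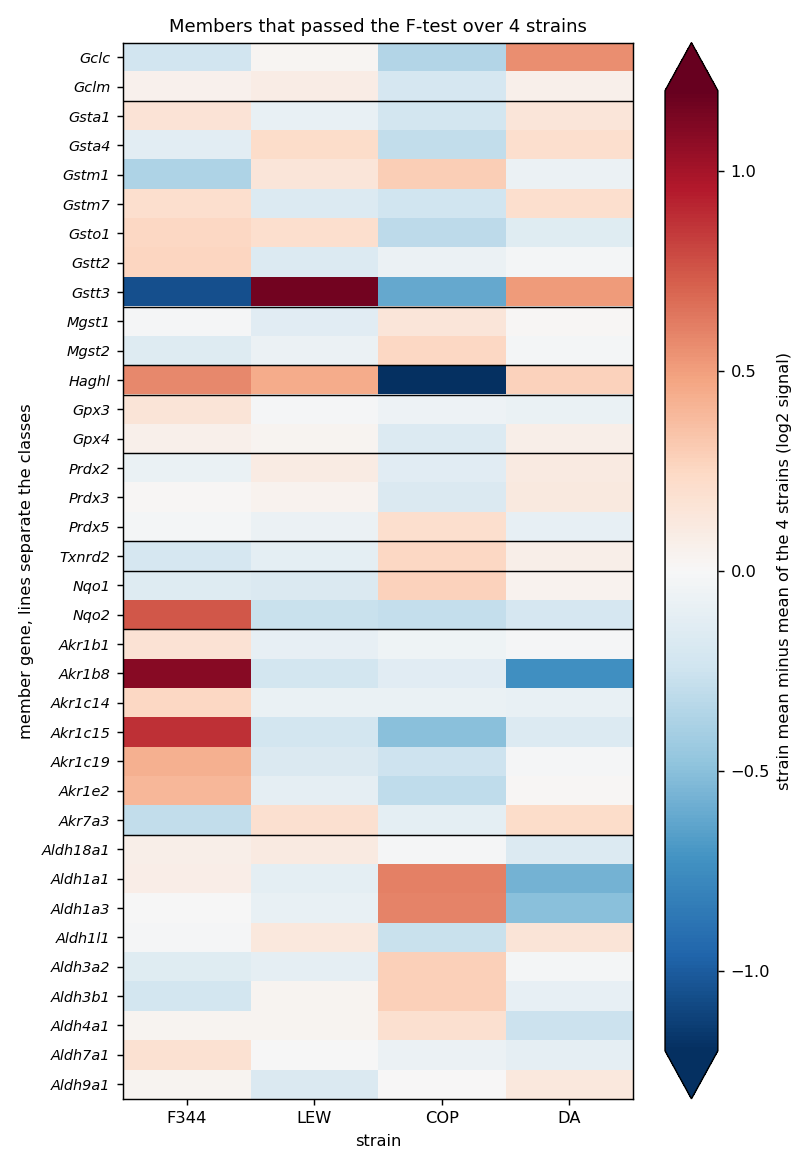
Colour gives the mean of each strain minus the mean of the 4 strains (log2 signal, 4 arrays per strain) for the 36 enzyme genes called by the F-test, with lines between enzyme classes and the strongest colours used for any value beyond the ends of the bar. F344 is the reddest column for Nqo2, Akr1b8, Akr1c15 and Akr1e2, COP for Aldh1a1 and Aldh1a3, DA for Gclc and LEW for Gstt3, and COP is the bluest for Haghl.

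Glutathione synthesis differed most in its catalytic subunit. Gclc signals on the 4 arrays of each strain were 3122, 3241, 3020.1 and 2971 in F344, then 3906, 3513, 4221 and 3216 in LEW, then 2689, 2824, 2936 and 2959.7 in COP, and 5039, 5524, 5802 and 5048 in DA. All 4 DA arrays lay above every array of the other strains, and the 4 COP arrays lay below those of LEW. Gclc gave -0.91 (SE 0.075, limma adjusted p = 3.21e-08) in COP minus DA and -0.79 (SE 0.075, limma adjusted p = 1.70e-07) in F344 minus DA. Gclc gave -0.53 (SE 0.075, limma adjusted p = 3.55e-05) in LEW minus DA and 0.37 (SE 0.075, limma adjusted p = 0.00136) in LEW minus COP. A second Gclc probe set gave COP minus DA -0.90, F344 minus DA -0.82 and LEW minus DA -0.82, all called. Both probe sets thus read a higher level in DA. In LEW minus COP the second gave 0.077 (limma adjusted p = 0.6615) and was not called. The representative probe set also called F344 minus LEW at -0.26 (limma adjusted p = 0.0241), while the second gave 0.001 (limma adjusted p = 0.997). That call of Gclc was lost without F344 replicate 3 or 4 or LEW replicate 1 or 3 (limma adjusted p up to 0.106).

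The modifier subunit Gclm followed another order, with strain means of 4579.7 ± 328 for F344, 4677 ± 323 for LEW, 3831 ± 157 for COP and 4608 ± 552 for DA (SD, n = 4). It was lower in COP than in each other strain. Gclm gave 0.26 (SE 0.078, limma adjusted p = 0.0254) in F344 minus COP and 0.29 (SE 0.078, limma adjusted p = 0.0161) in LEW minus COP. It gave -0.26 (SE 0.078, limma adjusted p = 0.0347) in COP minus DA. These calls were close to the threshold. The first was lost without F344 replicate 1 or 3 or COP replicate 1 or 2 (limma adjusted p up to 0.0912). The second was lost without LEW replicate 1 or 3 or COP replicate 1 (limma adjusted p up to 0.0566), and the third without COP replicate 1, 2 or 4 or DA replicate 1 or 3 (limma adjusted p up to 0.126). For Gss, which adds glycine, means were 450.4 for F344, 451 for LEW, 419 for COP and 388 for DA and no pair was called (F-test limma adjusted p = 0.44). Glutathione reductase, Gsr, did not pass the filter, with means of 188 for F344, 166 for LEW, 178 for COP and 144 for DA. The RNA signal of Gclc was thus higher in DA. That of Gclm was lower in COP by calls that depended on single arrays, and Gss showed no call.

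Promoters were searched for the core of the antioxidant response element, TGACNNNGC on either strand, in the 250 bases before to the 50 bases after the start of each gene (RefSeq, assembly GRCr8, made from a rat of another strain). RefSeq gave a promoter for 63 of the 77 genes, and 13 held the core (20.6%), against 3342 of 27457 promoters of all genes (12.2%) and 1303 of 8790 of genes that passed the filter (14.8%). Among the enzyme genes that passed, 6 of 32 called by the F-test held it and 5 of 20 not called did. The 250 bases before the start are shown for 3 called genes that hold the core, one for each of synthesis, transferases and aldo-keto reductases, with the core in capitals.
Gclm (chr2:213031885-213032134, plus strand): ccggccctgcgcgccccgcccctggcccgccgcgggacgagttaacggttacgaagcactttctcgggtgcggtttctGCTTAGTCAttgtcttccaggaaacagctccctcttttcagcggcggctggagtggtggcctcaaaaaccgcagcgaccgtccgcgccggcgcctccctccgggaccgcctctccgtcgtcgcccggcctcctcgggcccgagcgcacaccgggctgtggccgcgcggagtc
Gstm7 (chr2:198260320-198260569, minus strand): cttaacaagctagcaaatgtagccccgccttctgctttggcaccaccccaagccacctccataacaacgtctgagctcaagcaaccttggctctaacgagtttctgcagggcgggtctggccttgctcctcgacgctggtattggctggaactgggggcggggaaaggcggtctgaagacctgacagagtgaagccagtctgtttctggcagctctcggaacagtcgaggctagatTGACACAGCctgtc
Akr1c15 (chr17:71117958-71118207, minus strand): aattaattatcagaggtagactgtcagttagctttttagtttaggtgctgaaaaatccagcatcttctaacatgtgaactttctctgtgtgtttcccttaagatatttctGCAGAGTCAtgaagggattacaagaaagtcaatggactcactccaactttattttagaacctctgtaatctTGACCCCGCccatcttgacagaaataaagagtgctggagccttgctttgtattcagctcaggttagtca
In Gclm the core lies on the minus strand from position -172, in Gstm7 on the plus strand from -14, and in Akr1c15 on the minus strand from -140 and on the plus strand from -69, counted from the start site. The highest strain differs between them, being F344 for Akr1c15, DA and F344 for Gstm7 and none in particular for Gclm, which was lower in COP. Gclc held no match in this window.

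Transferases that join glutathione to electrophiles numbered 19, of which 13 passed the filter and 7 were called by the F-test. The largest difference of all 61 genes was that of Gstt3, a theta class transferase. Gstt3 signals on the 4 arrays of each strain were 245, 273, 229 and 216 in F344, then 1094, 1288, 1014 and 1077 in LEW, then 359, 277, 374 and 303 in COP, and 777, 513, 821 and 785 in DA. The arrays of no 2 strains overlapped, and the order was LEW, DA, COP and F344. Gstt3 gave -2.22 (SE 0.15, limma adjusted p = 5.48e-10) in F344 minus LEW and -1.57 (SE 0.15, limma adjusted p = 1.28e-07) in F344 minus DA. Gstt3 gave 1.77 (SE 0.15, limma adjusted p = 1.64e-08) in LEW minus COP and -1.13 (SE 0.15, limma adjusted p = 1.42e-05) in COP minus DA. It gave 0.65 (SE 0.15, limma adjusted p = 0.00509) in LEW minus DA. The step between the lowest strains was the weakest, with F344 minus COP -0.44 (SE 0.15, limma adjusted p = 0.0367). This call was lost without F344 replicate 1, 3 or 4 or COP replicate 1 or 3 (limma adjusted p up to 0.108). Gstt1 and Gstt2 lie near Gstt3, with 0 protein-coding genes between Gstt1 and Gstt3 and 2 between Gstt2 and Gstt1 in RefSeq, and had another order. Gstt2 means were 539 for F344, 402 for LEW, 428 for COP and 441 for DA, with F344 minus LEW 0.42 (SE 0.11, limma adjusted p = 0.014). Gstt1 means were 208 for F344, 200.1 for LEW, 158 for COP and 224 for DA, with no pair called (F-test limma adjusted p = 0.395). The Gstt2 F-test call was lost without F344 replicate 1, 2 or 3 or LEW replicate 1 or 2 (limma adjusted p up to 0.103). The Gstt2 call in F344 minus COP, 0.33, was lost without F344 replicate 1, 2 or 3, COP replicate 1, 2, 3 or 4 or DA replicate 1 or 2 (limma adjusted p up to 0.125).

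**Figure D3:**
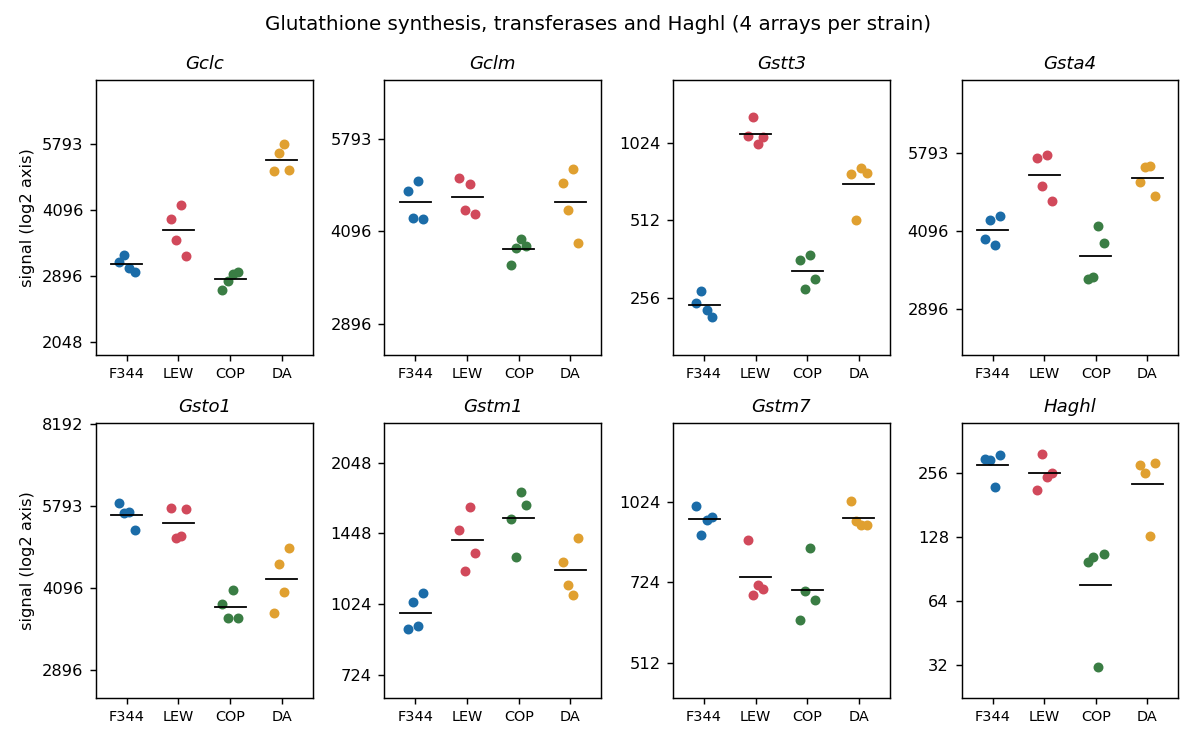
Points give the signal of each array (log2 axis, one scale per panel) and lines the mean of the log2 values of a strain, for Gclc, Gclm, 5 transferases and Haghl. The 4 DA points of Gclc lie above all others, the LEW points of Gstt3 lie above all others with F344 lowest, and the COP points of Haghl lie below all others.

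Gsta4 of the alpha class and Gsto1 of the omega class were both lower in COP than in LEW. Gsta4 signals on the 4 arrays of each strain were 3948, 4296, 3857 and 4387 in F344, then 5675, 5001, 5749 and 4685 in LEW, then 3306, 3345, 4196 and 3890.2 in COP, and 5095, 5441, 5484 and 4794 in DA. Gsta4, which acts on the lipid aldehyde 4-hydroxynonenal, was higher on every LEW and DA array than on any F344 or COP array. Gsta4 gave 0.52 (SE 0.083, limma adjusted p = 1.25e-04) in LEW minus COP and -0.50 (SE 0.083, limma adjusted p = 2.61e-04) in COP minus DA. It gave -0.35 (SE 0.083, limma adjusted p = 0.00589) in F344 minus LEW and -0.34 (SE 0.083, limma adjusted p = 0.00779) in F344 minus DA. Gsta4 and Gclc lie on the same chromosome with 4 protein-coding genes between them in RefSeq, and both had a high mean in DA, but LEW minus DA was 0.017 for Gsta4 (limma adjusted p = 0.932) and -0.53 for Gclc. Gsto1 signals on the 4 arrays of each strain were 5867, 5611, 5639 and 5223 in F344, then 5731, 5046, 5106 and 5709 in LEW, then 3830.2, 3609.6, 4053 and 3604 in COP, and 3686, 4528, 4018 and 4841 in DA. Gsto1, an omega class enzyme, was higher on every F344 and LEW array than on any COP or DA array. Gsto1 gave 0.57 (SE 0.077, limma adjusted p = 1.61e-05) in F344 minus COP and 0.52 (SE 0.077, limma adjusted p = 5.68e-05) in LEW minus COP. It gave 0.40 (SE 0.077, limma adjusted p = 0.0011) in F344 minus DA and 0.34 (SE 0.077, limma adjusted p = 0.00445) in LEW minus DA. Gsta1 had its lowest mean in COP. Gsta1 gave 0.39 (SE 0.098, limma adjusted p = 0.00709) in F344 minus COP and -0.37 (SE 0.098, limma adjusted p = 0.0151) in COP minus DA. The second of these was lost without COP replicate 1 or DA replicate 1 (limma adjusted p up to 0.0573).

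In the mu class, Gstm1 and Gstm7 differed in opposite directions between F344 and both LEW and COP. Gstm1 signals on the 4 arrays of each strain were 904, 1034, 917 and 1082 in F344, then 1468, 1202, 1648 and 1315 in LEW, then 1552, 1286, 1777 and 1664 in COP, and 1258, 1121, 1072 and 1413 in DA. Every F344 array lay below every LEW and COP array for Gstm1. Gstm1 gave -0.67 (SE 0.11, limma adjusted p = 2.38e-04) in F344 minus COP and -0.51 (SE 0.11, limma adjusted p = 0.00407) in F344 minus LEW. Its COP minus DA, 0.37 (SE 0.11, limma adjusted p = 0.0405), was lost without COP replicate 1, 3 or 4 or DA replicate 1, 2 or 3 (limma adjusted p up to 0.124). Gstm7 signals on the 4 arrays of each strain were 1006, 889, 946 and 961 in F344, then 869, 685, 716 and 704 in LEW, then 617, 696, 839 and 672 in COP, and 1027, 944, 926 and 927 in DA. Here all F344 and DA arrays lay above all LEW and COP arrays, the reverse of the Gstm1 order for F344. Gstm7 gave -0.45 (SE 0.10, limma adjusted p = 0.00494) in COP minus DA and 0.44 (SE 0.10, limma adjusted p = 0.00358) in F344 minus COP. Its F344 minus LEW, 0.36 (SE 0.10, limma adjusted p = 0.0189), was lost without F344 replicate 1 or LEW replicate 2 or 3 (limma adjusted p up to 0.0629). LEW minus DA, -0.37 (SE 0.10, limma adjusted p = 0.0195), was lost without LEW replicate 2 or 4 or DA replicate 1 (limma adjusted p up to 0.0698). Gstm2, with means of 516 for F344, 558 for LEW, 573 for COP and 575 for DA, had no pair called. The same was true of Gstm4, with means of 545 for F344, 410.2 for LEW, 469 for COP and 443 for DA. Gstm5 was called in COP minus DA alone, at 0.28 (SE 0.081, limma adjusted p = 0.028). It lost that call without COP replicate 1 or 3 or DA replicate 1, 2 or 3 (limma adjusted p up to 0.0964). RefSeq places Gstm5, Gstm6l, Gstm7, Gstm3, Gstm2, Gstm1 and Gstm4 in one cluster of 7, and probes of such related genes can pick up each other, which was not tested.

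The pi class gene Gstp1 had means of 6465 for F344, 6473 for LEW, 7583 for COP and 6919 for DA and was not called by the F-test (limma adjusted p = 0.0654). Its F344 minus COP, -0.23 (SE 0.078, limma adjusted p = 0.0414), was lost without F344 replicate 1, 2 or 4, LEW replicate 2 or COP replicate 1, 2 or 3 (limma adjusted p up to 0.118) and under median centring. Gstk1, the mitochondrial kappa class gene, had means of 1033 for F344, 1232 for LEW, 1408 for COP and 1017 for DA. The F344 minus COP value of Gstk1, -0.43 (SE 0.15, limma adjusted p = 0.0473), was lost without F344 replicate 1, 3 or 4, LEW replicate 2, COP replicate 1 or 4 or DA replicate 2, 3 or 4 (limma adjusted p up to 0.15) and under both quantile normalisation and median centring. Gsta3, Gsta3l1, Gstm3, Gstm6l, Gsto2 and Gstp3 did not pass the filter. Microsomal transferases are proteins of membranes, and Mgst2 had means of 2869.6 ± 144 for F344, 3036 ± 74.6 for LEW, 3824 ± 439.5 for COP and 3156 ± 142 for DA (SD, n = 4). Mgst2 gave -0.41 (SE 0.072, limma adjusted p = 3.51e-04) in F344 minus COP and -0.33 (SE 0.072, limma adjusted p = 0.00338) in LEW minus COP. COP minus DA, 0.27 (SE 0.072, limma adjusted p = 0.0173), was lost without COP replicate 3 (limma adjusted p up to 0.066). Mgst1 gave LEW minus COP -0.28 (SE 0.064, limma adjusted p = 0.00388), and Mgst3 (means 28094 for F344, 28025 for LEW, 28015 for COP and 32278 for DA) had no pair called.

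Glutathione peroxidases differed little between strains. Of 7 glutathione peroxidases, 5 passed the filter and 2 were called, and no log2 difference exceeded 0.29 in any of the 5. Gpx4, which reduces lipid hydroperoxides in membranes, had means of 13842 ± 132 for F344, 13607 ± 804 for LEW, 11899.7 ± 824 for COP and 13954 ± 1169 for DA (SD, n = 4) and was lowest in COP. Gpx4 gave 0.22 (SE 0.063, limma adjusted p = 0.0162) in F344 minus COP and -0.23 (SE 0.063, limma adjusted p = 0.0203) in COP minus DA. It gave 0.19 (SE 0.063, limma adjusted p = 0.0436) in LEW minus COP. Of these Gpx4 calls, F344 minus COP was lost without COP replicate 1 or 2 (limma adjusted p up to 0.0619) and COP minus DA without COP replicate 1 or 2 or DA replicate 4 (limma adjusted p up to 0.0769). LEW minus COP was lost without F344 replicate 1, 2, 3 or 4, LEW replicate 1, 2 or 3, COP replicate 1 or 2 or DA replicate 3 (limma adjusted p up to 0.145). Gpx3, the secreted form, was highest in F344, with F344 minus DA 0.24 (SE 0.063, limma adjusted p = 0.0134) and F344 minus COP 0.21 (SE 0.063, limma adjusted p = 0.0216). The first of these was lost without F344 replicate 1 or DA replicate 3 (limma adjusted p up to 0.0602) and the second without F344 replicate 1 or COP replicate 3 or 4 (limma adjusted p up to 0.0827). Gpx1, the main cytosolic form, had means of 37538 for F344, 38739 for LEW, 37628 for COP and 42401 for DA and was not called (F-test limma adjusted p = 0.153), nor were Gpx7 (0.234) and Gpx8 (0.132) of the endoplasmic reticulum. Gpx2 and Gpx6 did not pass the filter.

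The 5 peroxiredoxins all passed the filter and 3 were called. Prdx5, found in mitochondria and peroxisomes, was highest in COP, with means of 9783 ± 434 for F344, 9484 ± 406 for LEW, 11439.9 ± 609 for COP and 9292 ± 774 for DA (SD, n = 4). Prdx5 gave 0.30 (SE 0.062, limma adjusted p = 0.00243) in COP minus DA and -0.27 (SE 0.062, limma adjusted p = 0.00452) in LEW minus COP. It gave -0.23 (SE 0.062, limma adjusted p = 0.0136) in F344 minus COP. Prdx2, the peroxiredoxin abundant in red cells, was lower in COP than in LEW and DA. Prdx2 gave 0.24 (SE 0.064, limma adjusted p = 0.0148) in LEW minus COP and -0.25 (SE 0.064, limma adjusted p = 0.0136) in COP minus DA. The first of these was lost without LEW replicate 1 or 3 or COP replicate 1 (limma adjusted p up to 0.0593) and the second without COP replicate 1 or DA replicate 3 (limma adjusted p up to 0.0577). Of 18 measured markers of the erythroid lineage, 8 were called higher (background 6.41%) and 0 lower (background 7.72%) in LEW minus COP. In COP minus DA, 0 higher (background 5.74%) and 9 lower (background 6.42%) were called. Prdx2 was not called in F344 minus LEW (-0.18, limma adjusted p = 0.0742) or F344 minus DA (-0.19, limma adjusted p = 0.051). In F344 minus LEW the erythroid markers had 1 higher (background 6.96%) and 10 lower (background 7.54%). In F344 minus DA they had 1 higher (background 8.11%) and 9 lower (background 9.20%). Their summed signal ran from 292104 to 320669 for F344, 356019 to 410398 for LEW, 299351 to 322659 for COP and 371233 to 426858 for DA. None of the 18 was at the floor of 1 on every array, and their part in the result was not tested. Prdx3, the mitochondrial form, gave COP minus DA -0.30 (SE 0.073, limma adjusted p = 0.00985). Its LEW minus COP, 0.22, was lost under quantile normalisation and without F344 replicate 1, 2, 3 or 4, LEW replicate 1, 2 or 3, COP replicate 1 or 2 or DA replicate 2, 3 or 4 (limma adjusted p up to 0.161). Prdx4 had means of 11376 for F344, 12230.1 for LEW, 12032 for COP and 11651 for DA and no call. Prdx6 was called in F344 minus DA alone, at 0.24 (SE 0.080, limma adjusted p = 0.0497). That call was lost without F344 replicate 1, 2 or 3, LEW replicate 1, 2 or 3, COP replicate 2 or 4 or DA replicate 1, 2 or 4 (limma adjusted p up to 0.139). A further 3 probe sets name several genes of these families and were left out of the counts, and 1 of them, for Prdx1l1 and Prdx1, passed the filter. It had means of 14082 for F344, 20081 for LEW, 19407 for COP and 14757 for DA. It gave F344 minus LEW -0.51 (limma adjusted p = 1.62e-06) and LEW minus DA 0.45 (limma adjusted p = 1.13e-05). Which of these genes it reads cannot be told apart.

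Of the 3 thioredoxin reductases, which restore thioredoxin with NADPH, the mitochondrial Txnrd2 was called. Its means were 594 ± 43.7 for F344, 636 ± 87.8 for LEW, 814 ± 73.9 for COP and 723 ± 78.4 for DA (SD, n = 4), highest in COP. Txnrd2 gave -0.45 (SE 0.11, limma adjusted p = 0.00722) in F344 minus COP and -0.36 (SE 0.11, limma adjusted p = 0.0372) in LEW minus COP. The second of these was lost without LEW replicate 2 or 4 or COP replicate 1, 3 or 4 (limma adjusted p up to 0.139) and under both quantile normalisation and median centring. The cytosolic Txnrd1 had means of 2263 for F344, 2298 for LEW, 1965 for COP and 1989 for DA (F-test limma adjusted p = 0.0848). Txnrd3 had means of 589.6 for F344, 521 for LEW, 498 for COP and 488 for DA (F-test limma adjusted p = 0.554).

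Quinone reductases took 2 separate patterns. Nqo2 signals on the 4 arrays of each strain were 1466, 1314, 1343 and 1299 in F344, then 648, 732, 637 and 673 in LEW, then 609, 600.3, 770.0 and 686 in COP, and 684, 611, 763 and 754 in DA. Nqo2 reduces quinones with a nicotinamide riboside cofactor, and every F344 array lay above every other array, while the remaining strains overlapped. Nqo2 gave 1.01 (SE 0.099, limma adjusted p = 2.26e-07) in F344 minus LEW and 1.03 (SE 0.099, limma adjusted p = 1.64e-07) in F344 minus COP. It gave 0.95 (SE 0.099, limma adjusted p = 6.03e-07) in F344 minus DA. Each fold was close to 2 on the linear scale, at 2.02, 2.04 and 1.93, and all 3 calls were kept with any array left out. Nqo1, the NADPH-dependent quinone reductase that is a common reporter of Nrf2, was highest in COP instead, with means of 990.3 ± 19.8 for F344, 977 ± 73.9 for LEW, 1337 ± 85.6 for COP and 1138 ± 70.7 for DA (SD, n = 4). Nqo1 gave -0.46 (SE 0.078, limma adjusted p = 2.71e-04) in LEW minus COP and -0.43 (SE 0.078, limma adjusted p = 4.07e-04) in F344 minus COP. Its COP minus DA, 0.23, missed the threshold (limma adjusted p = 0.0562).

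Aldo-keto reductases reduce aldehydes, ketones and steroids with NADPH, and most of their calls were rises in F344. Of 15 genes, 10 passed the filter and 7 were called by the F-test. There were 6 higher (background 10.4%) and 0 lower (background 10.6%) in F344 minus COP. F344 minus LEW had 5 higher (background 6.96%) and 1 lower (background 7.54%). F344 minus DA had 4 higher (background 8.11%) and 1 lower (background 9.20%). These pairs share the F344 arrays, and the counts include Akr1b1 and Akr1c14, whose other probe sets were not called. Without F344 in the pair, COP minus DA had 1 higher (background 5.74%) and LEW minus DA 1 higher (background 4.65%), both Akr1b8. LEW minus COP had 0 calls (background 14.1%), with 1 gene of 10 at an unadjusted limma p under 0.05. Akr1b8 signals on the 4 arrays of each strain were 1010.0, 1099, 1037 and 1118 in F344, then 345, 521, 396 and 482 in LEW, then 466, 461, 439 and 451 in COP, and 284, 358, 357 and 224 in DA. For Akr1b8, an aldose reductase relative, the F344 arrays lay above all others, and every DA array lay below every COP array. Akr1b8 gave 1.83 (SE 0.14, limma adjusted p = 1.21e-08) in F344 minus DA and 1.31 (SE 0.14, limma adjusted p = 1.48e-06) in F344 minus LEW. It gave 1.23 (SE 0.14, limma adjusted p = 2.84e-06) in F344 minus COP and 0.60 (SE 0.14, limma adjusted p = 0.00915) in COP minus DA. LEW minus DA, 0.52 (SE 0.14, limma adjusted p = 0.024), was lost without LEW replicate 2 or 4 or DA replicate 1 or 4 (limma adjusted p up to 0.0988). Akr1c15 signals on the 4 arrays of each strain were 1135, 1272, 1230.2 and 1166 in F344, then 717, 628, 503 and 436 in LEW, then 425, 418, 591 and 423 in COP, and 672, 426, 720.4 and 558 in DA. Akr1c15 was higher on each F344 array than on any other, and LEW, COP and DA overlapped. Akr1c15 gave 1.39 (SE 0.16, limma adjusted p = 2.90e-06) in F344 minus COP and 1.10 (SE 0.16, limma adjusted p = 7.29e-05) in F344 minus LEW. It gave 1.04 (SE 0.16, limma adjusted p = 1.26e-04) in F344 minus DA.

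**Figure D4:**
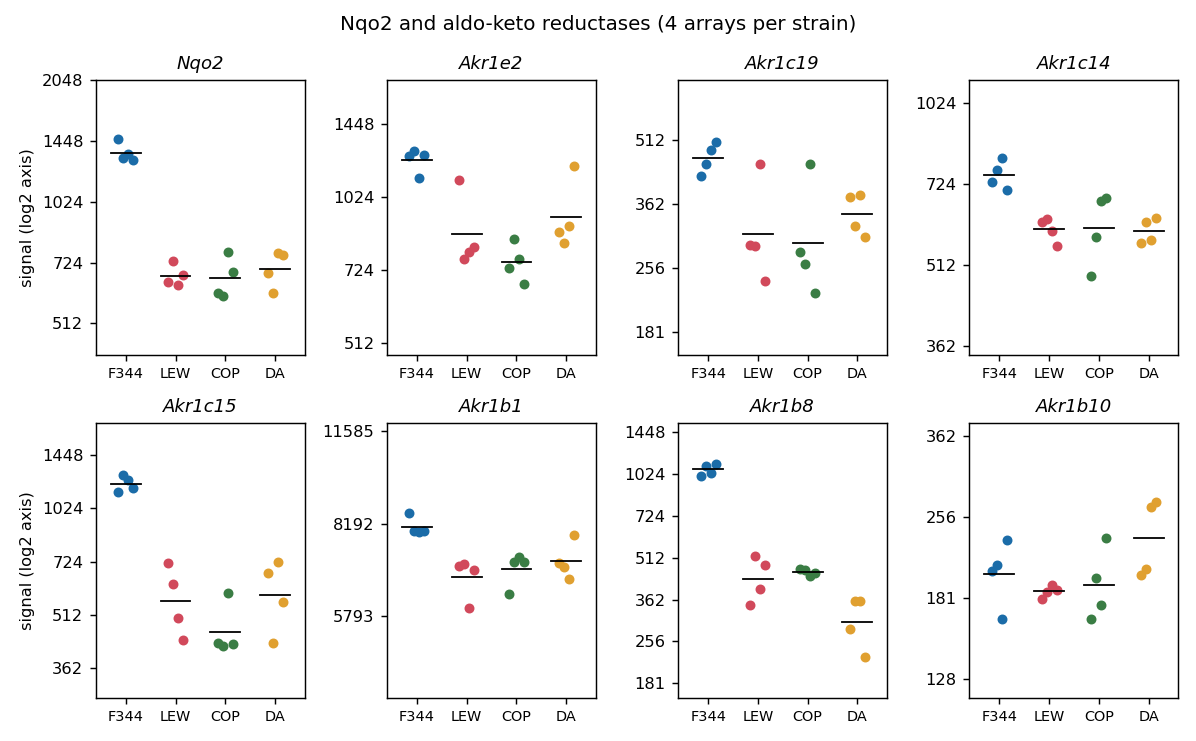
Points give the signal of each array (log2 axis, one scale per panel) and lines the mean of the log2 values of a strain, for Nqo2 and 7 aldo-keto reductases. The F344 points lie above all others for Nqo2, Akr1c14, Akr1c15 and Akr1b8, while those of Akr1b10 overlap with the other strains.

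Akr1e2 signals on the 4 arrays of each strain were 1244, 1274, 1119.5 and 1252 in F344, then 1111, 762, 791 and 810.0 in LEW, then 732, 840.2, 765 and 680.0 in COP, and 866, 825, 892 and 1186 in DA. The F344 arrays of Akr1e2, which reduces anhydrofructose, lay above all LEW and COP arrays and overlapped with 1 DA array. Akr1e2 gave 0.70 (SE 0.12, limma adjusted p = 3.05e-04) in F344 minus COP and 0.51 (SE 0.12, limma adjusted p = 0.00716) in F344 minus LEW. Its F344 minus DA, 0.39 (SE 0.12, limma adjusted p = 0.0345), was lost without F344 replicate 1, 2 or 4 or DA replicate 1, 2 or 3 (limma adjusted p up to 0.113). Akr1c19 signals on the 4 arrays of each strain were 422, 449.9, 487 and 509 in F344, then 290.4, 288, 452 and 238 in LEW, then 279, 261, 449.5 and 224 in COP, and 376, 321, 379.8 and 302 in DA. For Akr1c19, F344 had the highest mean, and 1 LEW array and 1 COP array lay within the F344 range. Its F344 minus COP, 0.67 (SE 0.20, limma adjusted p = 0.0209), was lost without F344 replicate 3 or 4 or COP replicate 2 or 4 (limma adjusted p up to 0.0766). The F-test call of Akr1c19 (limma adjusted p = 0.0454) was lost when any of 13 arrays was left out, that is without F344 replicate 1, 2, 3 or 4, LEW replicate 1 or 2, COP replicate 1, 2 or 4 or DA replicate 1, 2, 3 or 4 (limma adjusted p up to 0.125). Akr1c14, a 3-alpha-hydroxysteroid dehydrogenase, had means of 754 ± 45.4 for F344, 597 ± 30.4 for LEW, 605 ± 91.8 for COP and 594 ± 32.1 for DA (SD, n = 4). Akr1c14 gave 0.34 (SE 0.11, limma adjusted p = 0.0395) in F344 minus LEW and 0.33 (SE 0.11, limma adjusted p = 0.034) in F344 minus COP. It gave 0.34 (SE 0.11, limma adjusted p = 0.0316) in F344 minus DA. Of these, F344 minus LEW was lost without F344 replicate 1, 2 or 3 or LEW replicate 1, 2, 3 or 4 (limma adjusted p up to 0.116). F344 minus COP was lost without F344 replicate 1, 2 or 3 or COP replicate 1 or 2 (limma adjusted p up to 0.137), and F344 minus DA without F344 replicate 1, 2 or 3 or DA replicate 1 or 3 (limma adjusted p up to 0.0956). The other 2 Akr1c14 probe sets gave 0.14 and 0.024 for F344 minus LEW and were not called. The rise of Akr1c14 was thus read by 1 of 3 probe sets.

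RefSeq places 7 of these genes in one cluster, in the order Akr1e2, Akr1c1, Akr1c13, Akr1c19, Akr1c3, Akr1c14 and Akr1c15, with at most 2 other protein-coding genes between neighbours. Nqo2 lies on the same chromosome, 17, far from the cluster, with 62 protein-coding genes from Nqo2 to Aldh5a1, 79 from there to Gpx6 and 106 from Gpx6 to Akr1e2. Of the 10 enzyme genes on chromosome 17, 6 passed the filter. In F344 minus COP, 5 were called higher (background 10.4%) and 0 lower (background 10.6%). These 5 include Akr1c14 and Akr1c19, whose calls in that pair were lost with single arrays left out. F344 minus LEW had 4 higher (background 6.96%) and 0 lower (background 7.54%), and F344 minus DA 4 higher (background 8.11%) and 0 lower (background 9.20%). In the limma fit, LEW minus COP, LEW minus DA and COP minus DA had 0 calls among the 6 that passed, and 0, 0 and 2 of them had an unadjusted p under 0.05. Genes of this cluster are similar in sequence, so one transcript could be read by more than one probe set, which was not tested. Akr1b8 lies elsewhere, on chromosome 4, next to Akr1b1, Akr1b10 and Akr1b7 with 0 genes between. Akr1b1, aldose reductase itself, had means of 8106 ± 289 for F344, 6724 ± 501 for LEW, 6932 ± 423 for COP and 7142 ± 513 for DA (SD, n = 4). Akr1b1 gave 0.27 (SE 0.066, limma adjusted p = 0.00715) in F344 minus LEW and 0.23 (SE 0.066, limma adjusted p = 0.0177) in F344 minus COP. The second of these was lost without F344 replicate 1 or COP replicate 1 (limma adjusted p up to 0.0705). Both were lost with the mean of the 2 Akr1b1 probe sets, the second of which gave -0.003 for F344 minus LEW. Akr1b10 had means of 202 for F344, 186 for LEW, 193 for COP and 236 for DA and no call (F-test limma adjusted p = 0.406). A higher level in F344 was thus called for Akr1b8 and Akr1b1 but not for the gene beside them, a difference that was not itself tested. A second Akr1b10 probe set did not pass the filter, with means of 208 for F344, 108 for LEW, 96.0 for COP and 115 for DA. In all, 9 enzyme genes lie on chromosome 4, where the locus of the F344 and LEW cross was mapped, and 7 passed the filter: Akr1b1, Akr1b8, Akr1b10, Gstk1, Txnrd3, Aldh1l1 and Mgst1. Of these 7, Akr1b1 and Akr1b8 were called in F344 minus LEW, a pair in which 14.5% of all genes were called. Whether they lie within the mapped locus was not tested.

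Akr7a3 signals on the 4 arrays of each strain were 332, 343, 374 and 441 in F344, then 492, 515, 558 and 512 in LEW, then 366, 416, 412 and 489 in COP, and 535, 572, 509 and 499 in DA. Akr7a3, an aflatoxin aldehyde reductase, had its lowest mean in F344, with every F344 array below every LEW and DA array. Akr7a3 gave -0.49 (SE 0.12, limma adjusted p = 0.00753) in F344 minus LEW and -0.51 (SE 0.12, limma adjusted p = 0.00456) in F344 minus DA. Its neighbour Akr7a2 had means of 1275 for F344, 1309 for LEW, 1322 for COP and 1445 for DA and no call (F-test limma adjusted p = 0.527). Akr1a1, the general aldehyde reductase, had means of 19500.3 for F344, 19378 for LEW, 19701 for COP and 18221 for DA and a gap between strains of 0.11 (F-test limma adjusted p = 0.336). Akr1b7, Akr1c1, Akr1c3, Akr1c13 and Akr1d1 did not pass the filter.

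In F344 minus LEW the macrophage list had 7 of 12 measured markers higher (background 6.96%) and 0 lower (background 7.54%). The B cell list had 0 of 8 higher and 7 lower, and each background holds for all lists of a pair. In F344 minus COP the macrophage list had 4 higher (background 10.4%) and 1 lower (background 10.6%). The B cell list had 0 higher and 8 lower. Summed macrophage signals ran from 31893 to 33782 for F344, 28132 to 30897 for LEW, 28553 to 31151 for COP and 31057 to 32362 for DA. Those of the B cell list ran from 17238 to 17728 for F344, 28991 to 31945 for LEW, 27724 to 32429 for COP and 21369 to 29413 for DA, lowest in F344 with no overlap. In F344 minus DA the macrophage list had 3 higher (background 8.11%) and 2 lower (background 9.20%). The B cell list had 0 higher and 8 lower. Erythroid markers had 1 higher and 10 lower of 18 in F344 minus LEW, 1 higher and 9 lower in F344 minus DA and 1 higher and 2 lower in F344 minus COP. Adipocyte markers had 7 higher and 0 lower of 12 and skeletal muscle markers 7 higher and 0 lower of 15 in F344 minus COP, and each list had 1 higher and 0 lower in both other F344 pairs. Neutrophil markers had 0 higher and 4 lower of 11 in F344 minus LEW and 1 higher and 5 lower in F344 minus DA. No marker of these lists was at the floor on every array, and their part in the results for F344 was not tested.

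Aldehyde dehydrogenases oxidise aldehydes to acids, and 15 of 17 passed the filter, with 9 called by the F-test. There were 4 higher (background 5.74%) and 1 lower (background 6.42%) in COP minus DA. F344 minus COP had 1 higher (background 10.4%) and 4 lower (background 10.6%). F344 minus DA had 5 higher (background 8.11%) and 0 lower (background 9.20%). Aldh1a1 signals on the 4 arrays of each strain were 879, 992, 897 and 903 in F344, then 975, 846, 839.7 and 592 in LEW, then 1047, 1155, 1572 and 1598 in COP, and 579.9, 511, 594 and 672 in DA. Aldh1a1, a retinaldehyde dehydrogenase, was higher on every COP array than on any other, and the DA arrays were the lowest but for 1 LEW array within their range. Aldh1a1 gave 1.17 (SE 0.15, limma adjusted p = 8.27e-06) in COP minus DA and -0.72 (SE 0.15, limma adjusted p = 0.00143) in LEW minus COP. It gave 0.64 (SE 0.15, limma adjusted p = 0.00392) in F344 minus DA. F344 minus COP, -0.53 (SE 0.15, limma adjusted p = 0.0136), was lost without COP replicate 3 or 4 (limma adjusted p up to 0.055). Aldh1a3 signals on the 4 arrays of each strain were 613, 713, 656 and 587 in F344, then 475, 741, 475 and 807 in LEW, then 1213, 953, 918 and 837 in COP, and 489, 459.6, 482 and 394 in DA. The same order held for Aldh1a3, another retinaldehyde dehydrogenase: all COP arrays lay above all others, and DA was lowest with 2 LEW arrays in its range. Aldh1a3 gave 1.10 (SE 0.16, limma adjusted p = 5.78e-05) in COP minus DA and -0.68 (SE 0.16, limma adjusted p = 0.0047) in LEW minus COP. It gave -0.60 (SE 0.16, limma adjusted p = 0.00973) in F344 minus COP. F344 minus DA, 0.49 (SE 0.16, limma adjusted p = 0.0369), was lost without F344 replicate 1, 2 or 3 or DA replicate 2, 3 or 4 (limma adjusted p up to 0.103). The third gene of this kind, Aldh1a2, had its lowest mean in COP, with means of 279 ± 36.6 for F344, 344 ± 42.5 for LEW, 248 ± 74.4 for COP and 295 ± 55.1 for DA (SD, n = 4), and was not called (F-test limma adjusted p = 0.203).

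**Figure D5:**
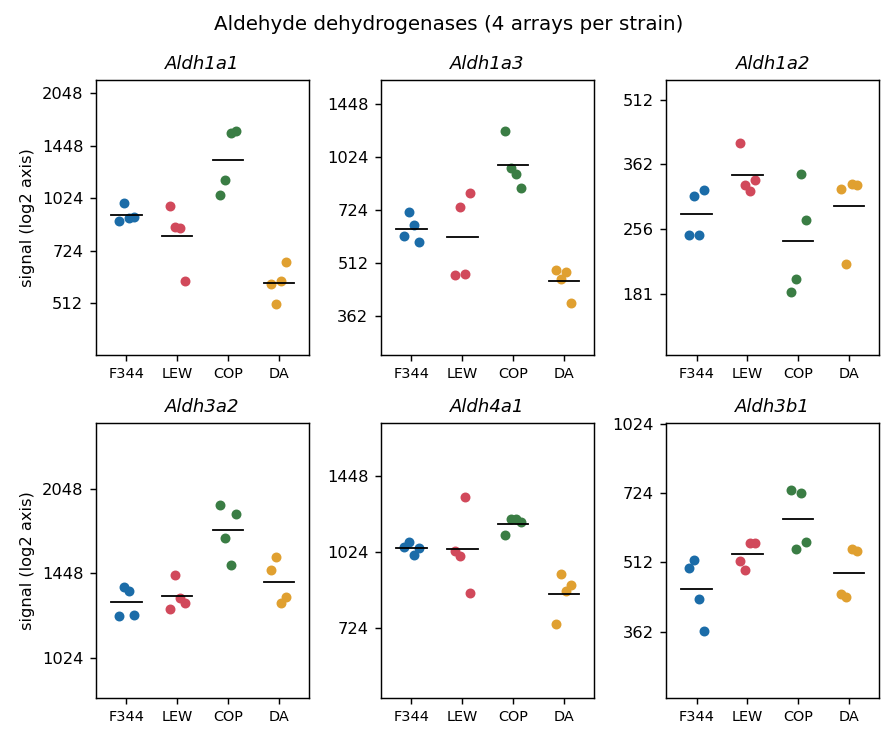
Points give the signal of each array (log2 axis, one scale per panel) and lines the mean of the log2 values of a strain, for 6 aldehyde dehydrogenases. The COP points lie above all others for Aldh1a1 and Aldh1a3, whereas the COP points of Aldh1a2 overlap with those of every other strain.

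Aldh4a1 signals on the 4 arrays of each strain were 1047, 1072, 1013 and 1043 in F344, then 1029, 1006, 1317 and 849 in LEW, then 1105, 1189, 1192 and 1172 in COP, and 739, 925, 857 and 884 in DA. Aldh4a1, a mitochondrial enzyme of proline breakdown, was higher on every COP array than on any DA array, with a wide spread in LEW. Aldh4a1 gave 0.46 (SE 0.10, limma adjusted p = 0.00569) in COP minus DA. Its F-test call was lost without DA replicate 1 (limma adjusted p up to 0.0532). Aldh3b1 signals on the 4 arrays of each strain were 498, 519, 426 and 364 in F344, then 515, 494, 564 and 564 in LEW, then 735, 548, 724 and 567 in COP, and 437, 429.7, 548 and 543 in DA. Aldh3b1, which acts on lipid aldehydes, was higher on every COP array than on any F344 array. Aldh3b1 gave -0.51 (SE 0.14, limma adjusted p = 0.0105) in F344 minus COP. Its F-test call was lost without F344 replicate 3 or 4 or COP replicate 1 or 3 (limma adjusted p up to 0.104). Aldh3a2, the fatty aldehyde dehydrogenase, was highest in COP, with means of 1288 ± 82.1 for F344, 1319.8 ± 81.0 for LEW, 1738 ± 191 for COP and 1403 ± 129 for DA (SD, n = 4). Aldh3a2 gave -0.43 (SE 0.088, limma adjusted p = 0.00149) in F344 minus COP and -0.39 (SE 0.088, limma adjusted p = 0.00362) in LEW minus COP. Its COP minus DA, 0.31 (SE 0.088, limma adjusted p = 0.0262), was lost without COP replicate 1 or 4 or DA replicate 3 or 4 (limma adjusted p up to 0.102).

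Aldh1l1, a folate enzyme, was lowest in COP. Aldh1l1 gave -0.42 (SE 0.11, limma adjusted p = 0.0155) in COP minus DA and 0.39 (SE 0.11, limma adjusted p = 0.0211) in LEW minus COP. The first was lost without COP replicate 4 (limma adjusted p up to 0.0579) and the second without LEW replicate 1 or 3 or COP replicate 3 or 4 (limma adjusted p up to 0.0868). Aldh9a1, which acts on aminoaldehydes, was lowest in LEW, with LEW minus DA -0.30 (SE 0.069, limma adjusted p = 0.00559). The F344 minus LEW value of Aldh9a1, 0.21, was lost without F344 replicate 1, 2, 3 or 4, LEW replicate 1, 2, 3 or 4, COP replicate 2 or 4 or DA replicate 1, 3 or 4 (limma adjusted p up to 0.121) and under both quantile normalisation and median centring. Aldh18a1, an enzyme of proline synthesis, was lowest in DA. Aldh18a1 gave 0.28 (SE 0.073, limma adjusted p = 0.0171) in LEW minus DA and 0.24 (SE 0.073, limma adjusted p = 0.0301) in F344 minus DA. The first was lost without LEW replicate 4 or DA replicate 3 (limma adjusted p up to 0.0669) and the second without F344 replicate 1 or 4 or DA replicate 2 or 3 (limma adjusted p up to 0.0964). Aldh7a1 was highest in F344, with F344 minus DA 0.29 (SE 0.086, limma adjusted p = 0.0258), lost without F344 replicate 2 or 4 or DA replicate 2 or 4 (limma adjusted p up to 0.0898). Its F344 minus COP, 0.25 (SE 0.086, limma adjusted p = 0.0439), was lost without F344 replicate 1, 2, 3 or 4, LEW replicate 2 or COP replicate 2, 3 or 4 (limma adjusted p up to 0.141). Aldh1l2 was called in F344 minus DA alone, at 0.34 (SE 0.11, limma adjusted p = 0.0356), lost without F344 replicate 2, 3 or 4 or DA replicate 2, 3 or 4 (limma adjusted p up to 0.123). Aldh2, the mitochondrial enzyme that clears acetaldehyde, had means of 4653 for F344, 4269.8 for LEW, 4396 for COP and 4571 for DA and no call (F-test limma adjusted p = 0.522). Aldh16a1 had none either (F-test limma adjusted p = 0.18). Aldh5a1 and Aldh6a1 were not called by their representative probe sets (F-test limma adjusted p = 0.25 and 0.205). Their second probe sets were called (F-test limma adjusted p = 0.0409 and 2.85e-04). They gave F344 minus LEW 0.80 for Aldh5a1 and F344 minus DA 0.47 for Aldh6a1. For Aldh5a1 both probe sets had F344 above each other strain, with F344 minus LEW 0.30 on the representative. For Aldh6a1 they ran opposite ways in F344 minus DA, which was -0.082 on the representative. Aldh1b1 and Aldh3a1 did not pass the filter.

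Beside the genes high in COP, the summed signal of the mast cell and eosinophil list (11 of 13 measured markers passed the filter) ran from 33387 to 36989 for F344, 28085 to 34809 for LEW, 59234 to 64991 for COP and 41924 to 51622 for DA, highest in COP with no overlap. By gene, 5 of the 11 were higher (background 10.4%) and 2 lower (background 10.6%) in F344 minus COP. In LEW minus COP, 4 were higher (background 6.41%) and 2 lower (background 7.72%). COP minus DA had 2 higher (background 5.74%) and 2 lower (background 6.42%). Each background holds for all lists of a pair. In F344 minus COP the 2 lower were Epx (-1.50) and Prg2 (-1.08). The 5 higher, thus lower in COP, included Cpa3 (0.89), Mcpt1 (0.89), Tpsab1 (0.85) and Mcpt8 (0.70). The high sum in COP was therefore not shared by all genes of the list. Neutrophil markers had 1 higher and 7 lower of 11 in F344 minus COP, with sums from 160940.4 to 168762 for F344, 185855 to 211565 for LEW, 212611 to 224972 for COP and 183443 to 218145 for DA. In COP minus DA, adipocyte markers had 0 higher and 5 lower of 12, and skeletal muscle markers 1 higher and 7 lower of 15. The adipocyte sums ran from 46051 to 48508 for F344, 36159.8 to 49548 for LEW, 32946 to 42575 for COP and 43813 to 49625 for DA. Those of muscle ran from 487013 to 519639.6 for F344, 421612 to 515061 for LEW, 373963 to 457216 for COP and 479216 to 568912 for DA. Osteoblast, osteoclast and cartilage markers had 0 limma calls in COP minus DA among 11, 6 and 13 tested, with 2, 2 and 1 at an unadjusted p under 0.05. Of 12 vascular markers, 4 were higher (background 6.96%) and 1 lower (background 7.54%) in F344 minus LEW. No measured marker of these lists was at the floor of 1 on every array, and their part in the results for COP and DA was not tested.

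Glyoxalase II (Hagh) hydrolyses the glutathione ester made from methylglyoxal, and Haghl is its relative. Haghl signals on the 4 arrays of each strain were 298, 293, 219.8 and 312 in F344, then 214, 314, 246 and 257 in LEW, then 97.7, 103, 31.4 and 106 in COP, and 279.8, 257, 129 and 285 in DA. Every COP array of Haghl lay below every array of the other strains, which overlapped with each other. Its means were 281 ± 41.4 for F344, 258 ± 42.0 for LEW, 84.6 ± 35.7 for COP and 238 ± 73.6 for DA (SD, n = 4). The COP mean lay under the filter level of 173.5 and Haghl passed through the other strains, so no difference or p-value is given against COP, although the gene is among those counted as called. COP replicate 3 was lower than the rest of COP. Hagh had means of 9425 for F344, 9251 for LEW, 8551 for COP and 8929 for DA and no call (F-test limma adjusted p = 0.329).

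Genes that regulate, supply or act beside these enzymes were taken from 6 lists. Of 97 measured genes, 89 passed the filter and 50 were called by the F-test (56.2%, against 32.9% of all genes). F344 minus LEW had 9 of the 89 higher (background 6.96%) and 7 lower (background 7.54%). COP minus DA had 4 higher (background 5.74%) and 14 lower (background 6.42%). In F344 minus COP, 20 were higher (background 10.4%) and 13 lower (background 10.6%). In F344 minus DA, 11 were higher (background 8.11%) and 18 lower (background 9.20%). LEW minus COP had 14 higher (background 6.41%) and 14 lower (background 7.72%). LEW minus DA had 8 higher (background 4.65%) and 11 lower (background 5.77%). Among 7 regulators of the Nrf2 pathway, 4 were called, and the largest change was that of Nfe2l1, a relative of Nrf2 known for control of proteasome genes. Nfe2l1 means were 573 for F344, 693 for LEW, 650.0 for COP and 2067 for DA, and its range in DA, 1975 to 2265, did not overlap with any other strain. Nfe2l1 gave -1.85 (SE 0.12, limma adjusted p = 2.40e-10) in F344 minus DA and -1.68 (SE 0.12, limma adjusted p = 1.68e-09) in COP minus DA. It gave -1.58 (SE 0.12, limma adjusted p = 2.60e-09) in LEW minus DA. DA was thus the strain with the highest Nfe2l1 and the highest Gclc; with 4 strains the relation of the genes was not tested. Nfe2l2 (Nrf2) itself had means of 3188 for F344, 3117 for LEW, 3537 for COP and 3329 for DA and was not called (F-test limma adjusted p = 0.104). Keap1 had means of 1269.6 for F344, 1212 for LEW, 1212 for COP and 1269.7 for DA and was not called (F-test limma adjusted p = 0.795). The small Maf proteins, partners of Nrf2, were called: Mafg was lowest in COP (LEW minus COP 0.43, SE 0.086, limma adjusted p = 0.00136) and Mafk highest in LEW (LEW minus DA 0.51, SE 0.095, limma adjusted p = 0.001).

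NADPH supply, which feeds the reductases, had the highest share of calls among these 6 lists, 12 of 14. Tkt, transketolase of the pentose phosphate pathway, gave F344 minus COP -0.51 (SE 0.064, limma adjusted p = 5.78e-06), and Pgls of the same pathway -0.48 (SE 0.12, limma adjusted p = 0.00541). Nadk2, which makes mitochondrial NADP, was highest in LEW, with F344 minus LEW -0.55 (SE 0.082, limma adjusted p = 6.76e-05). In F344 minus COP, this list had 4 genes higher (background 10.4%) and 5 lower (background 10.6%). LEW minus COP had 1 higher (background 6.41%) and 6 lower (background 7.72%). Of 16 thioredoxin and glutaredoxin genes, 9 were called. Glrx2, the mitochondrial glutaredoxin, split the strains into pairs, with means of 5809 ± 363 for F344, 5521 ± 173 for LEW, 2371 ± 102 for COP and 2512 ± 66.4 for DA (SD, n = 4) and F344 minus COP 1.29 (SE 0.057, limma adjusted p = 9.50e-13). The methionine sulfoxide reductases Msra (LEW minus COP -0.75, SE 0.16, limma adjusted p = 0.002) and Msrb2 (COP minus DA 0.63, SE 0.098, limma adjusted p = 1.45e-04) were both highest in COP. For Msra, F344 minus COP was not called, and F344 was also above LEW (0.64, limma adjusted p = 0.00863).

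Of 9 genes of superoxide, peroxide and heme removal, 5 were called. Heme oxygenase Hmox1 gave COP minus DA -0.58 (SE 0.090, limma adjusted p = 1.41e-04), and biliverdin reductase Blvrb -0.51 (SE 0.075, limma adjusted p = 7.54e-05). Hmox1 is also on the list of macrophage markers. COP minus DA had 0 genes of this list higher (background 5.74%) and 4 lower (background 6.42%). In that pair 9 of the 18 erythroid markers were also lower. In F344 minus DA the list had 0 higher (background 8.11%) and 4 lower (background 9.20%), while 9 erythroid markers were lower. In F344 minus LEW it had 0 higher (background 6.96%) and 1 lower (background 7.54%), while 10 erythroid markers were lower. LEW minus COP had 3 genes of the list higher (background 6.41%) and 1 lower (background 7.72%), and 8 erythroid markers higher. The part of erythroid cells in these calls was not tested. Mitochondrial superoxide dismutase, Sod2, was highest in F344, with F344 minus COP 0.34 (SE 0.082, limma adjusted p = 0.00603). Glutathione transport and turnover had 11 of 22 called, among them Chac1, which degrades glutathione (F344 minus LEW 0.99, SE 0.16, limma adjusted p = 1.61e-04), the aminopeptidase Anpep (in the same pair 0.79, SE 0.090, limma adjusted p = 2.17e-06) and Alox5ap of leukotriene synthesis (F344 minus COP -0.69, SE 0.077, limma adjusted p = 1.32e-06). Other aldehyde, quinone and carbonyl enzymes had 9 of 21 called. Epoxide hydrolase Ephx2 had means of 733 ± 48.4 for F344, 669 ± 139.7 for LEW, 139 ± 29.5 for COP and 158 ± 59.6 for DA (SD, n = 4). Its COP and DA means lay under the filter level and it passed through F344 and LEW, so no difference or p-value is given. The calls of Ephx2 are nevertheless among those counted for these lists. The higher means of Glrx2 lay in F344 and LEW, as those of Gsto1 did. Aldehyde oxidase Aox1 was lowest in COP (F344 minus COP 0.82, SE 0.15, limma adjusted p = 6.40e-04), and the sulfotransferase Sult1a1 highest in DA, where COP minus DA, -0.70 (SE 0.18, limma adjusted p = 0.0114), was lost without COP replicate 1 or 2 (limma adjusted p up to 0.0531).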

How the data were processed

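Signals of 31099 probe sets on 16 rat arrays, hybridised with biotin-labelled cRNA from proximal femur, were used: linear intensity values, deposited in one table, that the authors computed by MAS5 (per the submitters' processing notes). The MAS5 version, its settings and the genome build are not given in the sources used here, and the 2% trimmed mean of every array was 1000.3, so the deposited intensities are scaled to one level. Gene symbols came from the platform annotation (20826 probe sets with 1 symbol, 436 with several, 9780 with none), and all 77 enzyme genes matched RefSeq by identifier, with 0 symbols changed. After 57 control probe sets were removed, signals under 1 (255 values) were set to 1 and log2 was taken. Probe sets with a mean log2 at or above the 40th percentile (18625 of 31042) were fitted with limma 3.58.1 in R 4.3.3, with 1 mean per strain, 12 residual degrees of freedom and an intensity trend; the F-test and 6 contrasts were each adjusted over all 18625 by Benjamini and Hochberg, with a threshold of 0.05. Genes were represented by their brightest probe set. Tables and plots were made with pandas 2.3.3 and matplotlib 3.10.9. On simulated F344 minus LEW data (18625 probe sets, 200 changed, 3 runs) the fit recovered 53.3% of log2 changes of 0.5, 95.3% of 1, 99.3% of 2 and 92.0% of -1, and 5.05% of calls were false. The simulation changed F344 alone with independent normal noise, whereas 14.5% of all genes were called in the real pair. Its shares therefore need not hold for these data. The number of arrays limits the precision. Named in full were the 16 called genes with the largest gap between strain means and, in each contrast, the 2 largest rises and falls among called genes whose arrays do not overlap; the rest are given by class, with the brightest gene of each class and up to 3 genes per pathway list. The enzyme genes, gene lists and marker lists were chosen with earlier results of these data known. Alternatives were other scalings, filters, a pseudocount, no trend, a replicate block, pairs fitted alone, gene means and each array left out.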

Additional observations from a re-analysis of the deposited data

Results flagged for a closer look

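Among the 68 strain groups of the 17 genes given in full, 5 held an array far from its 3 companions by Dixon's criterion, where chance gives about 1 in 20. Gstt3 read 512.9 on DA replicate 2, against 776.8 to 821.4 on the other DA arrays. Haghl read 31.36 on COP replicate 3, against 97.65 to 106.4 in the rest of COP, and 128.8 on DA replicate 3, against 256.6 to 285.3 in the rest of DA. Akr1c15 was high on COP replicate 3, at 591.3, where the other COP arrays read 418.4 to 425.4. Akr1e2 was high on LEW replicate 1, at 1111.4, where the other LEW arrays read 762.1 to 810.0.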

How the results depend on the processing

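Of 104 calls of enzyme genes in strain pairs, 61 were kept under every alternative run, 43 were lost under at least 1 and 0 changed direction. Calls lost numbered 4 with quantile normalisation, 4 with median centring, 0 with a pseudocount of 19.34, 17 with no filter, 0 among the genes left by a filter at the 60th percentile (signal 536.9), 19 without the intensity trend, 13 with each pair's 8 arrays alone and 6 with probe sets averaged by gene. With 1 array left out, 6 to 20 were lost, and counts ran from 30 to 41 for the F-test, 11 to 20 for genes with a strain apart, 11 to 15 for F344 minus LEW, 13 to 21 for COP minus DA, 19 to 30 for F344 minus COP, 11 to 21 for F344 minus DA, 13 to 18 for LEW minus COP and 5 to 10 for LEW minus DA; the counts of 11 and 13 that fell most are given by array above, and the cause was not tested. The other alternatives gave 29 to 38 for the F-test, 11 to 16 apart, 10 to 16 for F344 minus LEW, 16 to 23 for COP minus DA, 22 to 28 for F344 minus COP, 12 to 23 for F344 minus DA, 14 to 18 for LEW minus COP and 5 to 8 for LEW minus DA. With the filter at the 60th percentile, the split was 8 higher and 9 lower in LEW minus COP, 10 higher and 9 lower in COP minus DA and 2 higher and 3 lower in LEW minus DA, the last also with that pair's 8 arrays alone. Replicate numbers did not pair the arrays: over 24 pairs of arrays with one number in different strains, the correlation of deviations ran from -0.173 to 0.0875 (median -0.00194, against -0.00234 for different numbers), with 0 over 0.1. With the replicate number as a block, the counts were 35 for the F-test, 13 apart, 13 for F344 minus LEW, 21 for COP minus DA, 24 for F344 minus COP, 16 for F344 minus DA, 16 for LEW minus COP and 7 for LEW minus DA, and 9 calls were lost.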

Other observations

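The filter decided whether some enzyme genes could be tested. The 16 that did not pass had mean signals from 6.394 to 168.9, and 3 of them had a strain mean over the level. Akr1c13, a member of the aldo-keto cluster on chromosome 17, had its highest mean, 228, in F344 and its lowest, 103, in DA. The mitochondrial aldehyde dehydrogenase Aldh1b1 had means of 132 for F344, 142 for LEW, 194 for COP and 158 for DA, and those of Gsr are given above. Gstt1 and Haghl passed with a strain mean under the level. Of the 10 genes with more than 1 probe set, 6 had more than 1 above the filter.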
